A study of Mus musculus with 142 samples.

Results

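The line A.BOSN12.BTSS.COSN123 lacks element A, the OSN sites of the elements B and C of the Dppa2/4 domain and the Morc1 promoter site. It is represented by 1 clone, C4, with E/L Repli-seq profiles from 2 cultures. Its early and late S-phase fractions make up 4 of the 142 samples of the series, and every column whose header begins with the name of the line was taken. The cells are F121-9, a hybrid mESC line with a musculus and a castaneus (CAST) homolog, genome1 and genome2 in the headers, grown in 2i + LIF and labelled with BrdU for 2 h before sorting. The header places the deletions on the musculus homolog and names the CAST homolog of the same culture as the control. The genotype was taken from the label and the header alone. All deletions are CRISPR-mediated and lie on the same homolog, so that C4 lacks A, B-OSN-1, B-TSS, B-OSN-2, C-OSN-3, C-OSN-2 and C-OSN-1 on musculus. Per the paper, the A deletion takes out an OSN site and the transcription start site (TSS) of Dppa2, as it also does in the lines compared below. The TSS within C was not deleted, nor were the OSN sites Y and Z, which lie outside these elements. Comparison was made with A.BOSN12.COSN123, which lacks the same sites but keeps B-TSS (clones A6 and C11, 1 culture each), and with A.B.COSN123, which lacks A, the whole B element and the C-OSN sites (clone 2E.1, 2 cultures). The other clone of A.B.COSN123, 5A.7, also lacks B on CAST and enters only 1 alternative. Since C4 is a single clone, an effect of the clone and an effect of its deletions cannot be told apart, and p-values measure the spread between cultures and clones, which may be technical.

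Replication timing (RT) is the order in which segments of chromosomes are copied during S phase, and domains that replicate early tend to hold active chromatin. Early replication control elements (ERCEs) are cis-acting stretches of DNA whose loss delays a domain, and the ERCEs A, B and C of the Dppa2/4 domain contain sites bound by the pluripotency factors OCT4, SOX2 and NANOG (OSN). Dppa2 and Dppa4 encode DNA-binding proteins of pluripotent and germ cells, and Morc1 encodes an ATPase that silences transposons in the male germ line.

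The 7 deleted sites lie within 306 kb of chromosome 16 (mm10), and 7585 bp are removed in all. A (chr16:48308248-48311866, 3619 bp) lies in Dppa2 and covers coding and untranslated exon sequence. B-OSN-1 (chr16:48422340-48422716, 377 bp) lies in no annotated gene, at −8.71 kb from the Morc1 start. B-TSS (chr16:48431257-48431396, 140 bp) begins just inside the annotated Morc1 start and covers untranslated and coding exon sequence. B-OSN-2 (chr16:48435558-48436053, 496 bp), C-OSN-3 (chr16:48606321-48607163, 843 bp), C-OSN-2 (chr16:48608216-48608754, 539 bp) and C-OSN-1 (chr16:48613172-48614742, 1571 bp) lie in introns of Morc1. The guides are shown because they set the ends of each deletion, with the protospacer in lower case and the PAM in capitals, each 5′ to 3′ on its own strand. All 14 matched mm10 at their listed position.
A-G1 (chr16:48308242-48308264, minus): gggttaatgtgactgggcagTGG
A-G2 (chr16:48311861-48311883, minus): gtgcacctttaaccagctgcAGG
B-OSN-1-G1 (chr16:48422334-48422356, minus): tggattgtgagtactctagcTGG
B-OSN-1-G2 (chr16:48422700-48422722, plus): gctctataaagatgcaaatgAGG
B-TSS-G1 (chr16:48431251-48431273, minus): cacgcctacgtccacgcgtaCGG
B-TSS-G2 (chr16:48431391-48431413, minus): tggaaactcacgaattcgcgTGG
B-OSN-2-G1 (chr16:48435552-48435574, minus): ggtgcataaggatcttgaacTGG
B-OSN-2-G2 (chr16:48436048-48436070, minus): gttgagaaggcacttgtgagTGG
C-OSN-3-G1 (chr16:48606304-48606326, plus): cagcctgttgaattgacagaAGG
C-OSN-3-G2 (chr16:48607147-48607169, plus): tctcttccctgtgccgtaagTGG
C-OSN-2-G1 (chr16:48608199-48608221, plus): agagtttgtagaatgctccgGGG
C-OSN-2-G2 (chr16:48608749-48608771, minus): acaagcatggtagggcctaaAGG
C-OSN-1-G1 (chr16:48613166-48613188, minus): gagtaactcaggcaaaacgtTGG
C-OSN-1-G2 (chr16:48614737-48614759, minus): ggaccggccaacctcccttaAGG

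The letters ATGCAAAT (POU factors) and CATTGT (SOX factors) were searched on both strands. ATGCAAAT lay inside none of the 7 sites, and between 1.24% (140 bp) and 28.0% (3619 bp) of chromosome 16 stretches of the same lengths hold it. At B-OSN-1 these letters lie across the right cut (chr16:48422711-48422718, plus strand), with 6 letters on the deleted side and 2 outside it, and they can be read in the guide B-OSN-1-G2. CATTGT occurred in A (2 matches), B-OSN-1 (1), C-OSN-2 (1) and C-OSN-1 (2), where 91.6%, 23.2%, 31.4% and 67.0% of stretches of the same length hold it. The matches are descriptions of letters and not of binding. Below are 150 bases of the deleted sequence around a CATTGT match, on the plus strand and with the match in capitals on whichever strand it lies, for the 3 OSN sites outside exons that hold one.
B-OSN-1 (chr16:48422486-48422635): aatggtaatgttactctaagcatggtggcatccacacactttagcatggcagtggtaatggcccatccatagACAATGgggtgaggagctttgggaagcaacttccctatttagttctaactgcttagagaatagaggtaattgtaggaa
C-OSN-2 (chr16:48608581-48608730): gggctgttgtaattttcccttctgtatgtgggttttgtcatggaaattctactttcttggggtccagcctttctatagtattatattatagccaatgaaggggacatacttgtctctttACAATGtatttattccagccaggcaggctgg
C-OSN-1 (chr16:48613816-48613965): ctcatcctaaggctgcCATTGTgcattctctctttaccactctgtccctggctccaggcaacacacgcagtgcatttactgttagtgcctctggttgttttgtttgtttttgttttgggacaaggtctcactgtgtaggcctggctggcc

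Both alleles of C4 had values in 92.1% to 93.0% of the 49264 windows of 50 kb on the 19 autosomes. Values are log2 of early over late reads, so that a value above 0 means early and one below 0 late replication, and neighbouring windows share signal because the authors smoothed over 300 kb. The 2 cultures differed by a median of 0.17 on the deletion allele and 0.21 on CAST over the 80 windows of the 4 Mb around the domain (chr16:46500001-50500000), against 0.14 on both alleles across the autosomes. For averages, the domain was divided into a left flank (chr16:47500001-48000000), a Dppa4 segment (chr16:48000001-48300000), a segment with A and B (chr16:48300001-48450000), a Morc1 body segment (chr16:48450001-48600000), a C segment with the C-OSN sites (chr16:48600001-48750000) and a right flank (chr16:48750001-49500000). The CAST allele of C4 lay within the range of the 48 CAST alleles of other libraries that had values in the segment with A and B, at 1.01 and 1.03 against 0.78 to 1.35. In the left flank culture 1 (−1.46) lay below that range (−1.36 to −0.56) and culture 2 (−1.15) within it, and in the right flank culture 1 (−0.86) lay below it too (−0.82 to −0.26).

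On the CAST allele, C4 showed an early domain that was absent from the deletion allele. CAST crossed 0 at 48.05 Mb on the left and 48.952 Mb on the right, a width of 901 kb, and was earliest, in the mean of both cultures, in the window chr16:48400001-48450000, which holds the Morc1 promoter, at 1.03 and 1.11. The deletion allele never crossed 0 over chr16:48000001-49000000: 0 of 20 windows were above 0 in either culture, compared with 16 and 19 of 20 on CAST. The domain therefore had no border at the level of 0 on the deletion allele.

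**Figure D1:**
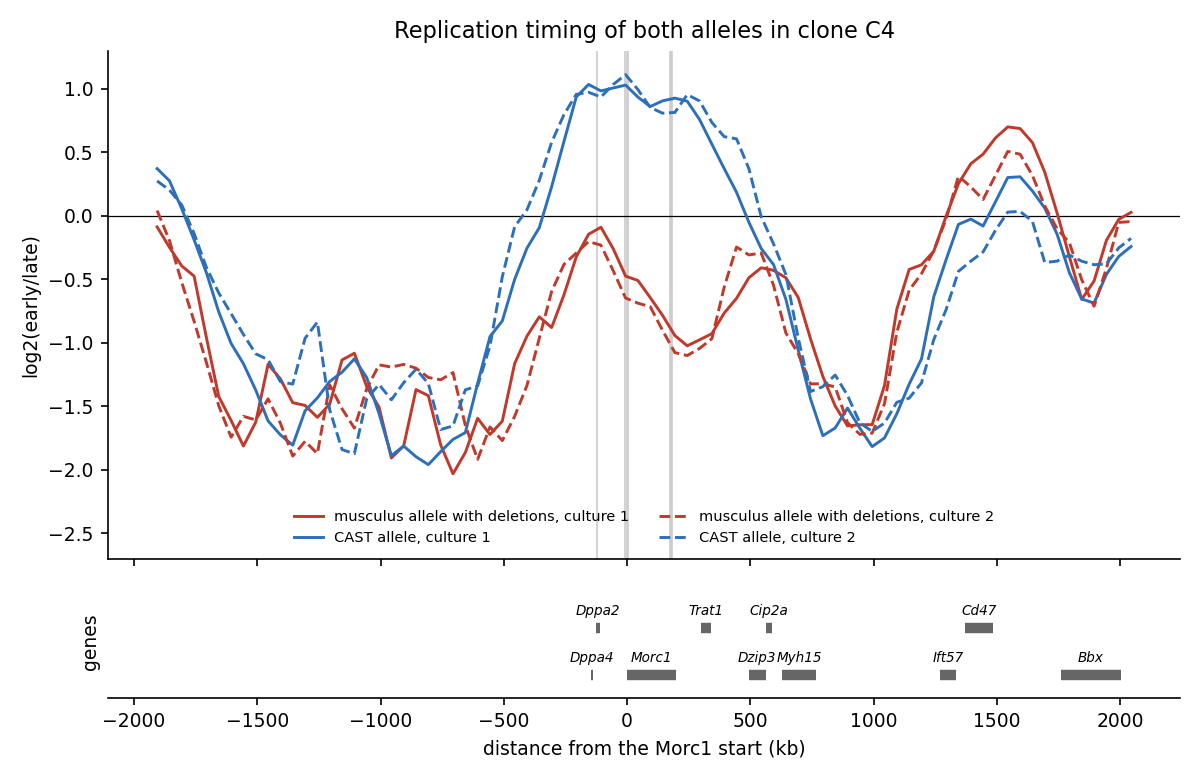
RT of the musculus allele with deletions (red) and the CAST allele (blue) in culture 1 (solid) and culture 2 (dashed) of clone C4, as log2 of early over late against distance from the Morc1 start, with grey lines at the deleted sites and gene bodies below. The deletion allele stays below 0 around the deleted sites, with peaks at −0.16 and −0.35 on either side of a trough at −1.06.

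The deletion allele kept a shape of its own rather than a flat late profile. It was latest in the window chr16:47750001-47800000, at −1.87 and −1.65 in cultures 1 and 2, although each culture alone placed the latest window 50 kb to one side. From there it rose to a peak, in the mean of both cultures, in the window chr16:48300001-48350000, which holds Dppa2 and the deleted site A, at −0.09 and −0.23. The adjacent window with Dppa4 (chr16:48250001-48300000) was at −0.15 and −0.20, so that the residual peak sat over both genes and its 2 windows differed by less than the cultures did. CAST had a plateau over the same stretch, with its earliest window at Dppa4 in culture 1 and at the Morc1 promoter in culture 2. At a level of −0.5 the residual peak of the deletion allele ran from 48.18 to 48.41 Mb (235 kb), compared with 1117 kb on CAST at the same level.

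To the right of this peak, RT of the deletion allele became later along the body of Morc1. The window with B-OSN-1, B-TSS and B-OSN-2 (the B window) was at −0.48 and −0.65, and the window with the 3 C-OSN sites (the C window, chr16:48600001-48650000) at −0.94 and −1.08. A local trough followed in the next window (chr16:48650001-48700000), just past the 3′ end of Morc1, at −1.02 and −1.10. Between the peak and this trough the deletion allele fell by 0.93 and 0.87, while CAST changed by −0.08 and 0.02. The order of these windows was the same in both cultures, and the fall was larger than the gap between the cultures in each of them. Trat1, which encodes a transmembrane adaptor of T-cell receptor signalling, lay in this late stretch, at a mean of −0.95 and −1.01 over its 2 windows.

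Another, lower peak followed on the right. In the mean of both cultures it fell in the window chr16:48950001-49000000, at −0.41 and −0.29, which holds the start sites of Dzip3 (a ubiquitin ligase) and Cip2a (an inhibitor of the phosphatase PP2A). Culture 2 alone placed it at chr16:48850001-48900000, at −0.25 against −0.65 in culture 1. From the trough to the window of Dzip3 and Cip2a the deletion allele rose by 0.61 and 0.81. CAST was already falling there and stood at −0.26 and −0.01. The alleles thus came close, with the deletion allele still the later in both cultures. The deletion allele was late again at chr16:49350001-49400000, at −1.65 and −1.72.

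The difference between the alleles (deletion minus CAST) was tested in every autosomal window with limma, with Benjamini-Hochberg adjustment and a call at an adjusted p of at most 0.05 and a difference of at least 0.25. Over these 4 Mb, 32 of 80 windows were called later on the deletion allele, compared with 12.2% of all windows, and 13 were called earlier, compared with 12%. With only the libraries of C4 in the fit, 24 were called later and 3 earlier, compared with 1455 and 1425 of all 44945 windows. Since the deletion allele is always musculus and the control always CAST, this background includes differences between the strains. The longest run of delay comprised 23 windows over chr16:47800001-48950000, with a mean difference of −1.16 and −1.35 in the 2 cultures. It covered every deleted site and ended in Dzip3 on the right.

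The delay was deepest in the trough window, with −1.93 and −2.06 in the cultures (mean −1.99 ± 0.13 SE, n = 2 cultures of 1 clone, limma adjusted p = 1.12e-12). The SE given for these windows rests on a spread shared by all 51 libraries of the fit. The window of the C-OSN sites was next, at −1.87 and −1.89 (−1.88 ± 0.094, limma adjusted p = 1.77e-15). The window of the B sites was at −1.50 and −1.76 (−1.63 ± 0.11, limma adjusted p = 2.21e-12), and the window of A at −1.07 and −1.17 (−1.12 ± 0.10, limma adjusted p = 4.6e-10). The windows thus ranked from A over B to C in their delay, and in each of them the cultures lay closer to each other than to 0. Within gene bodies, all 5 windows of Morc1 were called later, with a mean difference of −1.60 and −1.72, as were the single windows of Dppa4 (−1.18 and −1.18) and Dppa2. Of the windows of Myh15, a myosin heavy chain gene farther to the right, none was called (0.35 and −0.17 on average).

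The smallest difference of the region lay outside the domain, at chr16:47350001-47400000, with −0.07 and 0.08 (limma adjusted p = 0.992). The late trough at chr16:49350001-49400000, with 0.03 and −0.09, was alike. In both windows, the alleles differed by no more than the cultures did.

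Beyond the domain, 3 more runs were called. Over chr16:46500001-46900000 the deletion allele was later, with a mean difference of −0.52 and −0.65 (8 windows), and over chr16:49500001-50150000 it was earlier by 0.50 and 0.58 (13 windows). Both appeared in libraries with other deletions as well. The difference had the same sign in 47 of 48 other libraries on the left (median −0.37) and in 48 of 48 on the right (median 0.44). C4 lay near the edge of the other libraries on the left (range −0.66 to 0.10), where 2 of the 48 were beyond both of its cultures. On the right 8 were. The remaining run was the single window chr16:47150001-47200000, where the cultures disagreed (−0.15 and −1.04).

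The right-hand run belongs to the next early domain, around Ift57 (a component of intraflagellar transport) and Cd47 (the surface ligand of SIRPA). There the deletion allele crossed 0 at 49.73 Mb in both cultures and was earliest in the window chr16:49950001-50000000, at 0.70 and 0.51, which was the earliest window of the whole 4 Mb on this allele. CAST crossed 0 farther to the right, at 49.93 Mb, and the mean of the 3 unmodified musculus alleles in the series at 49.77 Mb, although 1 of the 3 did not reach 0. The left border of this domain on the deletion allele was thus nearer to that of unmodified musculus than to that of CAST in the same cells.

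The unmodified musculus alleles (1 from CR11.8k clone 50 and 2 from CTSS clone C4, a different clone of the same name, in both of which CAST carries the deletion) gave a control of the same strain. Their mean was 1.09 in the segment with A and B, 0.99 in the Morc1 body segment and 0.86 in the C segment. The deletion allele of C4 minus this mean was −1.45, −1.70 and −1.89, beside −1.37, −1.60 and −1.90 from its own CAST allele in the same segments. Over chr16:46500001-47500000 the difference was −0.08, and over chr16:49650001-50050000 C4 was earlier by 0.31. No test was run against these 3 alleles.

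The area between the alleles over the domain and its flanks (chr16:47500001-49500000), summed by the trapezoid rule over 40 windows, was −24.1 in culture 1 and −31.9 in culture 2 (mean −27.99 ± 5.5, SD, n = 2). Of 44009 regions of 2 Mb elsewhere on the autosomes, 17 (0.0386%) had an area as low, the lowest being −32.0 on chromosome 17. These regions overlap each other and include regions where the strains differ, so that the rank is a description. Of 23 lines with a value, each against its own CAST allele, C4 was number 3 from the lowest, after A.B.COSN123 (−44.7 and −41.4) and A.BOSN12.COSN123 (−29.8, with values in 37 of the 40 windows, and −30.9). The next line in order was AOSN.B.COSN123, whose 4 libraries ranged from −30.0 to −20.8. C4 overlapped this line and A.BOSN12.COSN123, and did not overlap A.B.COSN123. Against the mean of all unmodified CAST alleles the areas were −35.1 and −35.6 in C4, −36.3 and −32.96 in A.B.COSN123 and −31.5 and −34.1 in A.BOSN12.COSN123, so that C4 then overlapped A.B.COSN123.

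**Figure D2:**
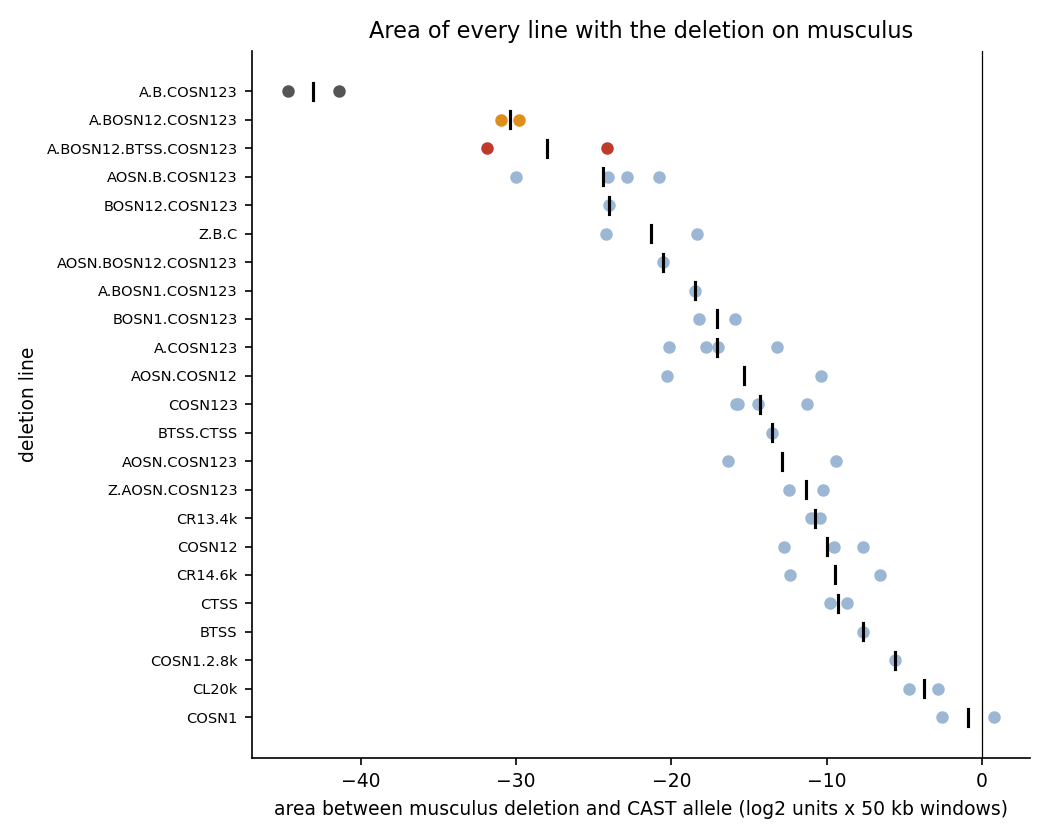
Area between the musculus deletion allele and the CAST allele (log2 units times 50 kb windows, domain with flanks) for each library (points) of the 23 lines with the deletion on musculus, with the line mean as a black bar. The 2 cultures of C4 (red, −24.1 and −31.9) lie on either side of the libraries that keep B-TSS (orange) and above those of A.B.COSN123 (dark grey).

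Comparison with A.BOSN12.COSN123 asks what the further loss of B-TSS, the Morc1 promoter site, goes with once A and the OSN sites of B and C are gone. No window of the 4 Mb passed the test: 0 of 73 windows tested were called, compared with 0.222% later and 0.181% earlier over all windows, with 11 of the 73 at an unadjusted p under 0.05 in the same limma fit. Both deletion alleles had the residual peak over Dppa4 and Dppa2, at −0.15 and −0.20 in C4 and at −0.10 and −0.28 in the line that keeps B-TSS, in the window of Dppa4. The means of the 2 lines differed there by less than the cultures or clones.

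Over the 3′ part of Morc1 and just past it, the values of C4 were the lower ones. In the C window the deletion allele was at −0.94 and −1.08 in C4 and at −0.75 and −0.63 in clones A6 and C11. The difference between the lines in the allele contrast was −0.41 ± 0.14 (SE), and it did not pass (limma adjusted p = 0.191). In the trough window it was −0.43 ± 0.19 (limma adjusted p = 0.376). Averaged over the C segment, the difference between the alleles was −1.84 and −1.97 in C4 and −1.58 and −1.56 in the line that keeps B-TSS. Over the Morc1 body segment the values were −1.55 and −1.65 against −1.41 and −1.29, and over the segment with A and B, where B-TSS itself lies, −1.28 and −1.47 against −1.47 and −1.30.

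On the right, the order was the opposite. The lowest adjusted p of the comparison was in the window chr16:48900001-48950000, named here after its value was seen, where C4 was earlier by 0.51 ± 0.15 (limma adjusted p = 0.136). The deletion allele was at −0.49 and −0.31 there in C4 and at −0.95 and −0.73 in the line that keeps B-TSS. Summed over the domain and its flanks, the areas differed by 2.38 with C4 closer to 0 (exact two-sided permutation test, p = 1, n = 2 and 2). The smallest p possible here is 0.33. In the flanks CAST was later in C4 than in the line that keeps B-TSS (left −1.30 against −1.10, right −0.75 against −0.51). The deletion alleles there were at −1.56 against −1.54 and at −1.01 against −0.95. The sign of this area difference turned with the control and with the interval, to −2.56 with the mean of all unmodified CAST alleles as control and to −1.56 over the inner chr16:48000001-49000000. B-TSS deleted alone (clone A10, 1 library) gave an area of −7.64, with values in 35 of the 40 windows, and was number 20 of the 23 lines from the lowest. Its mean difference was −0.42 in the segment with A and B and −0.25 in the C segment.

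**Figure D3:**
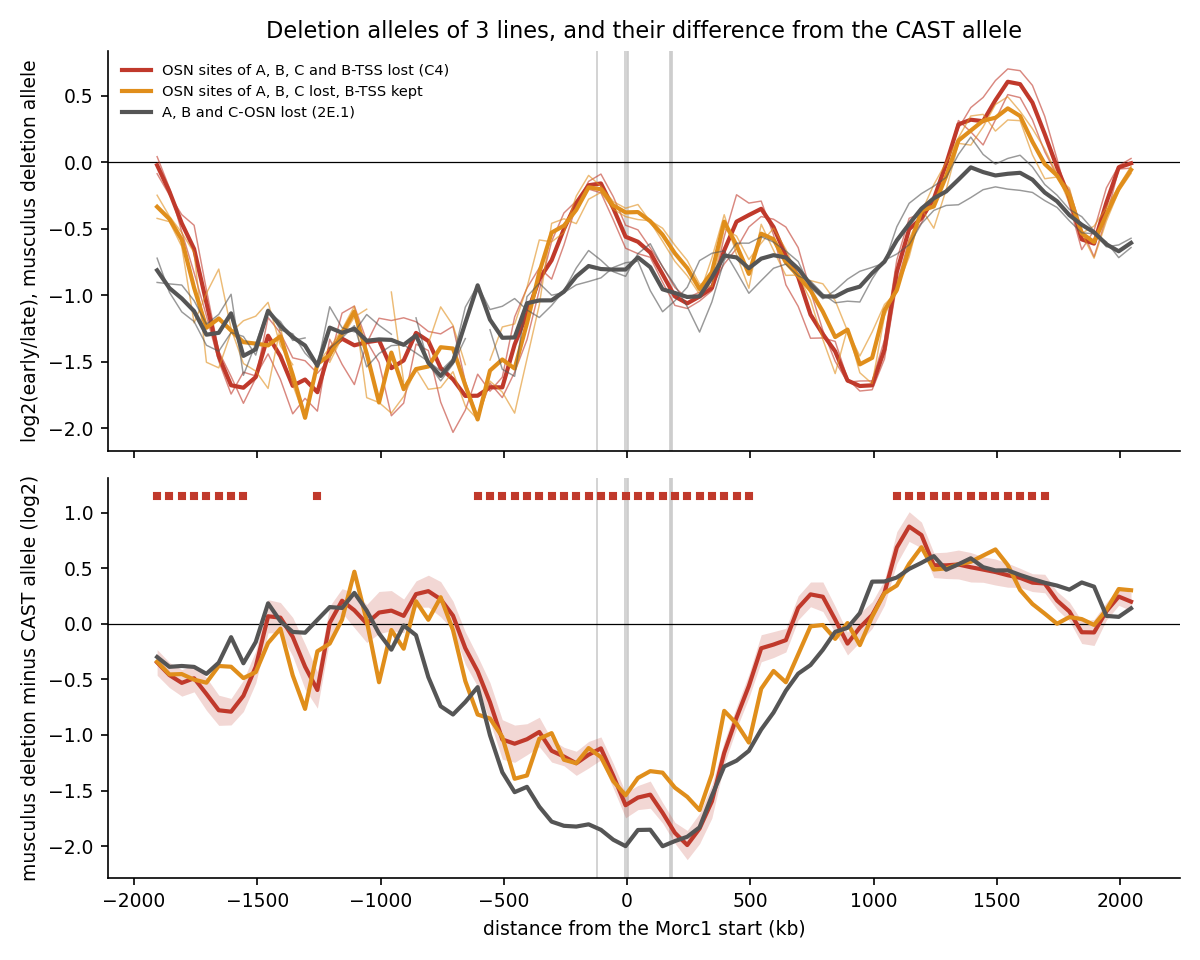
Top, RT of the musculus deletion alleles (thin lines, libraries; thick lines, means) of C4 (red), the line that keeps B-TSS (orange) and A.B.COSN123 clone 2E.1 (dark grey); bottom, mean deletion minus CAST difference with the SE of the C4 fit as a band and squares at windows called in C4. C4 and the line that keeps B-TSS share a peak to the left of the Morc1 start (−0.16 in C4), whereas 2E.1 stays near −0.80.

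Like C4, A.B.COSN123 lacks A and the C-OSN sites. Comparison with it asks how far the small deletions of C4 in B go towards the loss of the whole B element. Over the 4 Mb, C4 was earlier in 15 of 77 windows (background 2.27%) and later in 1 (background 1.14%), as the difference between the lines in the allele contrast. None was called with the cultures of each clone averaged, with only these libraries in the fit or with the replicate number as a block (18, 24 and 24 of 77 at an unadjusted p under 0.05 in limma). The longest run, 7 windows over chr16:48050001-48400000, covered Dppa4 and Dppa2 and reached 0.73 ± 0.15 (SE) in the window of Dppa2 (limma adjusted p = 0.00393). There the deletion allele was at −0.09 and −0.23 in C4 and at −0.87 and −0.74 in 2E.1. Compared directly, without CAST, C4 was earlier by 0.64 in this window (limma adjusted p = 0.000977), and 5 of the 7 windows passed. The direct comparison called 16 of 77 windows earlier and 8 later, against 4.54% and 20.4% of all windows.

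At the C sites, no difference was called. In the trough window the deletion allele was at −1.02 and −1.10 in C4 and at −0.94 and −1.09 in 2E.1, and the difference between the lines was −0.07 ± 0.18 (SE, limma adjusted p = 0.891). From the window of Dppa2 to this trough, where C4 fell by 0.93 and 0.87, 2E.1 fell by 0.07 and 0.35 and the line that keeps B-TSS fell by 0.67 and 0.51. The relief of the deletion allele over chr16:48000001-49000000, its highest minus its lowest window, was 0.93 and 1.13 in C4 against 0.46 and 0.72 in 2E.1. The other runs in which C4 was earlier lay at chr16:47600001-47750000, chr16:48900001-49050000 and chr16:49100001-49200000. In none of these windows did the deletion alleles pass when compared directly. At chr16:47650001-47700000 the direct difference was 0.06 (limma adjusted p = 0.863), at chr16:48950001-49000000 it was 0.37 (limma adjusted p = 0.056), and at chr16:49150001-49200000 it was −0.23 (limma adjusted p = 0.213), of opposite sign. At the first of these windows the CAST allele of 2E.1 was at −0.87 and −0.86 against −1.86 and −1.68 in C4.

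These calls changed with the libraries in the fit. With each of the 4 libraries left out in turn, fewer of the 77 windows were called, and fewer over all windows too. Such a fit leaves 1 library in a line, so that its counts are not given. The CAST allele of 2E.1 was broader than that of C4, with a border at 47.92 Mb on the left against 48.05 Mb. The areas differed by 15.1 (C4 closer to 0; exact two-sided permutation test, p = 0.33, n = 2 and 2, the smallest p possible), and the groups did not overlap. With the mean of all unmodified CAST alleles as the control of both lines, the area difference was −0.74, so that its sign depended on which CAST alleles served as control.

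**Figure D4:**
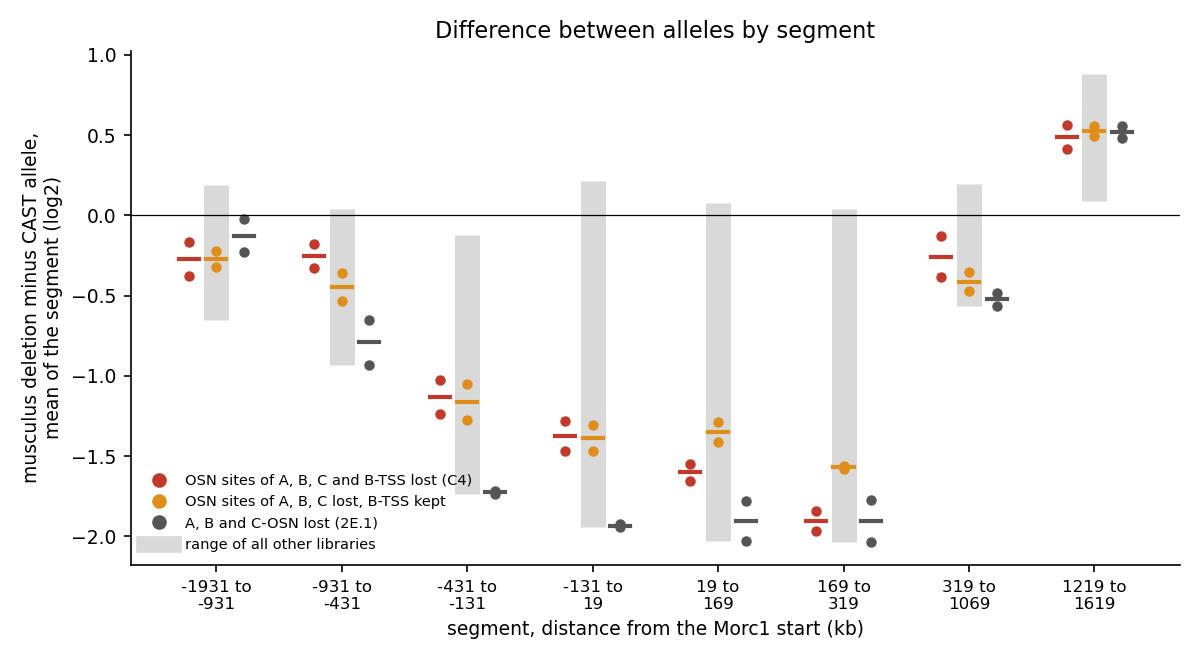
Mean deletion minus CAST difference (log2) of each library (points) and line (bars) over 8 segments, given as distance from the Morc1 start in kb, for C4 (red), the line that keeps B-TSS (orange) and clone 2E.1 (dark grey); grey columns span the 48 libraries other than C4 with values. In the Dppa4 segment and the segment with A and B, C4 (−1.13 and −1.37) lies by the line that keeps B-TSS (−1.16 and −1.39). In the segment of the C-OSN sites it lies by 2E.1 (both −1.90).

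By segment, the difference between the alleles of C4 deepened from left to right across the deleted sites and then returned. It was −0.18 and −0.33 in the left flank, −1.03 and −1.23 in the Dppa4 segment, −1.28 and −1.47 in the segment with A and B, −1.55 and −1.65 in the Morc1 body segment and −1.84 and −1.97 in the C segment. In the right flank it was −0.13 and −0.39. The spread between the cultures in a segment was at most 0.18 (SD). Of the 48 other libraries, 3 were lower than both cultures of C4 in the Dppa4 segment and 1 in the C segment. On the scale of RT itself, the deletion allele of C4 in the C segment (−0.98 and −1.07) was still above its left flank (−1.64 and −1.48).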

How the data were processed

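E/L Repli-seq was performed by the authors on early and late S-phase fractions of F121-9 mESCs. Per the methods and the submitters' processing notes, reads were trimmed (Trim Galore, cutadapt), aligned to an N-masked mm10 genome, split by allele and counted in 50 kb windows (bedtools). The deposited values are log2 of early over late, scaled, quantile-normalized and loess-smoothed over 300 kb by the authors, so that depth per library is unknown and neighbouring windows are not independent. Quantile normalization also acts on the spread of each profile. The SD of the deletion allele values was still 1.06 and 1.07 in C4 against 1.00 and 0.98 in 2E.1. The part of this in the direct comparison of deletion alleles was not tested.

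The difference between alleles of each library was fitted by limma 3.58.1 (R 4.3.3, statmod 1.5.0) over 51 libraries of 24 lines, with 1 coefficient per line and the clone as random block (correlation −0.0746), and p-values were Benjamini-Hochberg adjusted over all autosomal windows. Windows had to have a value in every library of the contrast. The fit was tested on simulated data. Areas were computed by the trapezoid rule and borders by linear interpolation between window centres, in Python 3.11.15 (numpy 2.4.6, pandas 2.3.3, scipy 1.17.1). Windows named are the earliest, latest, largest and smallest differences, local peaks, borders, ends of runs, and windows of deleted sites. The line, its segments and its lists were chosen with earlier results of these data known. Sites and guides came from the coordinates and oligonucleotides the study lists, read from mm10.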

Additional observations from a re-analysis of the deposited data

Results flagged for a closer look

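Between C4 and clone 2E.1 of A.B.COSN123, 16 of 77 windows of the 4 Mb around the domain differed in the allele contrast (limma, Benjamini-Hochberg adjusted). In this contrast C4 was the earlier in 15 of them (2.27% of all windows) and the later in 1 (1.14%). With the deletion alleles compared directly, without CAST, part of the longest earlier run passed and none of the other earlier runs did. At chr16:47650001-47700000 the direct difference was 0.06 (limma adjusted p = 0.863). None was called with the cultures of a clone averaged or with only these libraries fitted. The CAST alleles of both lines differed too in the left flank, at −1.46 and −1.15 in C4 and −0.56 and −0.61 in 2E.1, and their part in the calls was not tested.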

How the results depend on the processing

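The 45 windows called between the alleles of C4 (against 24.2% of all windows) became 27 when the fit held only the libraries compared (24 later, 3 earlier, against 6.41%). Fewer were called too, in the region and over all windows, with the cultures averaged or with either culture left out. Such fits leave C4 with 1 profile per allele. Between C4 and the line that keeps B-TSS, the alternatives called 0 windows, except for 1 without clone C11 (range over left-out libraries 0 to 1). Between C4 and clone 2E.1, 16 windows were called, and 0 when only these libraries were fitted, where 0 were called over all windows too. Fewer were also called, in the region and over all windows, with the cultures of a clone averaged or 1 library left out. Those fits leave 1 profile in a line. With the replicate number as a block 0 were called. The replicate numbers were not shown to pair the cultures (correlation of deviations 0.0138), and the paired area difference was again 15.1. Without the clone block, added after the data were seen because the correlation within clones was below 0, 12 were called, and with the deletion alleles compared directly 24 (16 earlier, 8 later, against 4.54% and 20.4% of all windows). The area of C4 was −35.4 against the mean of all unmodified CAST alleles and −31.9 to −24.1 by culture. The area difference to the line that keeps B-TSS, 2.38, turned to −2.56 with that control, to −1.56 over 48 to 49 Mb and to −1.50 without C4 culture 1 (range −1.50 to 6.26). That to A.B.COSN123 turned to −0.74 with the same control and to −1.68 with clone 5A.7 added, and was 11.2 to 18.9 with 1 library left out. At levels of −0.5 and 0.5, the CAST borders of C4 lay at 47.946 and 48.142 Mb (left, by culture 48.007 to 48.09) and 49.063 and 48.824 Mb (right, 48.914 to 48.974), and the left border of the next domain on the deletion allele at 49.578 and 49.937 Mb (49.726 to 49.729). The earliest window was that of Dppa2 or of Dppa4 by culture and the latest 47.7 or 47.8 Mb. The causes of these changes were not tested. Requiring a value in every library left no window of the region, since 1 library has none on CAST chromosome 16, and gave no value.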
